A study of Mus musculus with 20 samples.

Results

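The 35 genes described here act in G2/M, the passage from the end of DNA replication through mitosis to the separation of the daughter cells. They were chosen by name from the gene column of the array files, and all 35 were found among the 25034 gene symbols that the arrays could be given. A total of 67 probes carried one of these names, 18 of the 35 genes had several probes, and each gene was measured on its brightest probe. That probe was well above background on every one of the 20 arrays for all 35 genes. A level is given as log2 of the processed spot signal minus log2 of the 75th percentile of signals on the same array, so that a difference of 1 between groups is a doubling and a level of 0 is the brightness of the 75th percentile. Levels were compared within a probe and not between probes.

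In a dividing cell the kinase Cdk1, bound to A-type and then B-type cyclins, starts mitosis. Kinesin motors and spindle proteins then build the spindle, the spindle checkpoint holds chromosomes until all are attached, and the anaphase-promoting complex ends mitosis by marking cyclins and securin for destruction. Transcripts of these genes are held down in resting cells by the DREAM complex and are raised late in the cycle by the B-Myb and FOXM1 factors, many of them through a pair of promoter elements named CHR (cell cycle genes homology region) and the CCAAT box. In the gut epithelium they mark the dividing cells of the crypt. MEK is the kinase that passes the BRAF signal on to ERK, and ERK signalling is best known for acting earlier, on entry from G1.

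The arrays measured RNA of intestinal tissue from C57BL6/j mice, 1 mouse per array. In the first experiment 6 Cre control mice (VillinCreER/0) and 6 BRAFV600E mice (VillinCreER/0/BrafV600E-LSL/+) were 8 to 12 weeks old, all 12 received 3 daily injections of 2 mg tamoxifen, and tissue was taken 3 days after the last one. VillinCreER is active in gut epithelium only, so the mutant allele was switched on there while RNA came from whole tissue. In the second experiment 4 mice received the MEK inhibitor PD184352 (MEKi) and 4 its Vehicle, as 3 daily injections after 2 injections of tamoxifen. The study's legends give these 8 mice as BRAFV600E mutants, which the sample labels do not state. Tamoxifen was given to them at a lower dose per injection than in the first experiment, and the study's general induction protocol used mice of 8 to 12 weeks. In bulk tissue fewer cells of a type and less RNA per cell cannot be told apart.

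Slide, spike-in response and tissue content varied between arrays. Cre control 1 to 6 and BRAFV600E 1 and 2 shared slide 1, BRAFV600E 3 to 6 were alone on slide 2, and the MEKi and Vehicle arrays shared slide 3, where each group filled 1 row, so that row and group cannot be told apart. The spike-in dose response written by the scanner software had a slope between 1.02 and 1.08 on 13 arrays, of 0.773, 0.843 and 0.759 on Cre control 2, 3 and 5, and of 0 on the 4 arrays of slide 2. Between 60.8% and 76.8% of spots were well above background and none was saturated. Y-linked signal was high in 3 of 6 Cre control, 4 of 6 BRAFV600E, 2 of 4 Vehicle and 4 of 4 MEKi arrays, where the methods give equal numbers of males and females in the groups of the first experiment. Vehicle 2 carried exocrine pancreas transcripts, with a summed level of 1992 over 7 pancreatic markers against 0.622 to 0.849 on the other 7 arrays of its slide. All 8 markers of intestinal epithelium were measured on some arrays of every group.

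Promoter words of the kind that G2/M regulators read were common among these genes. RefSeq promoter windows (GRCm38.p6), from 250 bases before to 50 bases after the transcription start, were at hand for 29 of the 35 genes. The CHR was searched as TTTGAA and the CCAAT box as CCAAT, each on both strands, and the words overlapped in 1 gene, Cdca8. A CHR word was found in 21 of 29 genes (72.4%) against 20.2% of 27025 genes in the table, and a CCAAT word in 24 of 29 (82.8%) against 41.1%. Both words were present in 20 of 29 genes (69%) against 8.97% of all genes. The 33 DNA replication genes held the CHR word in 4 of 28 windows (14.3%), and the 22 output genes of the MAPK pathway in 1 of 15 (6.67%). Among genes of the 35 with a window, 7 of 11 that rose in BRAFV600E and 14 of 18 that were not called held a CHR word. Such matches are descriptions of letters, not of bound sites.

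Windows from 120 bases before to 30 bases after the start are printed for the 5 risen genes whose CHR word lay within them. Each therefore holds a CHR word by selection. They run 5′ to 3′ on the coding strand with every CHR and CCAAT word in capitals. Cdk1 is at chr10:69352883-69353032 on the minus strand, Kif2c at chr4:117178743-117178892 on the minus strand, Kif4 at chrX:100625945-100626094 on the plus strand, Prc1 at chr7:80294331-80294480 on the plus strand and Ube2c at chr2:164769809-164769958 on the plus strand.
Cdk1: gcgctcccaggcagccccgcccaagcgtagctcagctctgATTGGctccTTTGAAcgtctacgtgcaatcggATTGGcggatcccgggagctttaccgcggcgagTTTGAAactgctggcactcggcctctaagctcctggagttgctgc
Kif2c: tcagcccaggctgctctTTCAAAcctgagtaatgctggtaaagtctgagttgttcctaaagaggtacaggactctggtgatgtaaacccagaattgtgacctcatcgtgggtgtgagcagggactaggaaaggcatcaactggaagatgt
Kif4: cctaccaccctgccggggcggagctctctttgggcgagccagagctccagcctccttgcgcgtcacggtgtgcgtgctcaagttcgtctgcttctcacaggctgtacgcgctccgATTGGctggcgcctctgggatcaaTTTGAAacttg
Prc1: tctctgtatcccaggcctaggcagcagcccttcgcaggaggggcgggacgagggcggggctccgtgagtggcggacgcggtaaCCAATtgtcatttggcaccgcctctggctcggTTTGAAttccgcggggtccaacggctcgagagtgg
Ube2c: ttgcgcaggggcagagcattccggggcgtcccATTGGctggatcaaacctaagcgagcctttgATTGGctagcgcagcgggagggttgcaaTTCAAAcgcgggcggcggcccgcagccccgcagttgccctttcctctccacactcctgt
The Cdk1 window held CHR words at bases -71 and -15 and CCAAT words, read here on the opposite strand as attgg, at -80 and -48. In Ube2c the CHR word stood at -29 with CCAAT words at -88 and -57, and in Prc1 a CCAAT word at -37 preceded a CHR word at -5. Kif4 had its CHR word behind the start, at base 20, and Kif2c held 1 CHR word at -103 and no CCAAT word. In Plk1 and Cdca3, which also rose, the CHR word began at base 31, past the printed window. No CHR word was in the windows of Nek2, Bub1, Cenpe and Mad2l1, which says only that these letters are not in them.

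**Figure D1:**
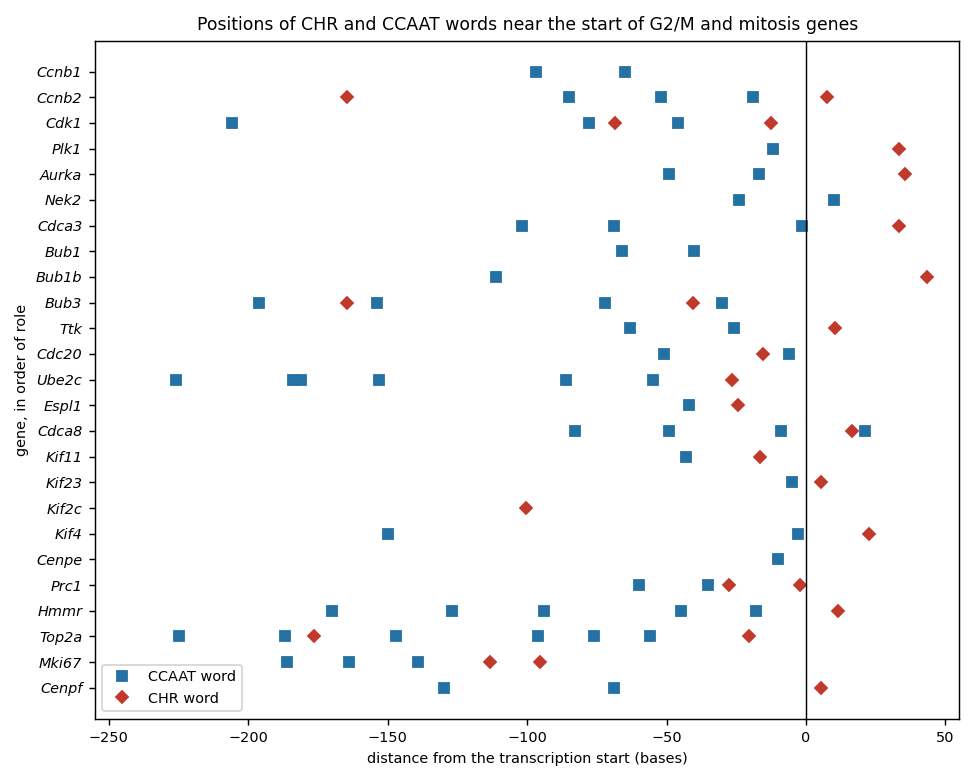
Positions of CHR words (diamonds) and CCAAT words (squares) in promoter windows of the G2/M and mitosis genes that held either, with distance from the transcription start in bases on the horizontal axis and genes in order of role; Bub3 and Prc1 have 2 annotated starts each, drawn on 1 line. In 20 of the 21 genes that held a CHR word, one began between 120 bases before and 40 bases after the start, and Bub1b, at 41, was the exception.

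G2/M and mitosis genes were higher in BRAFV600E than in Cre control intestine, and those that passed the test rose by 0.48 to 1.15 on the log2 scale. By limma with Benjamini-Hochberg adjustment over 19041 genes, 14 of the 35 rose and 0 fell at an adjusted p under 0.05, while 6.19% of all genes tested were called higher and 6.27% lower. The median log2 difference over the 35 genes was 0.55, beside -0.02 over all genes tested. The mean level of BRAFV600E was the higher one for 34 of the 35, and Bub3, a spindle checkpoint protein, was the exception at -0.03 ± 0.11 (SE). Before adjustment 30 of the 35 were higher at p under 0.05 by limma and 0 lower, where 15% of all genes tested were higher. The 6 BRAFV600E arrays did not overlap the 6 Cre control arrays for 7 of the 35 genes, all higher, beside 4.19% of genes tested that were so separated in that direction.

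The number called depended on which arrays were used. The low-slope arrays Cre control 2, 3 and 5 had the lowest mean levels of the 35 genes, -0.07 to 0.00, against 0.27 to 0.45 on the other 3 Cre control arrays, and they held the lowest value of the 12 arrays for 25 of the 35 genes. Without these 3 arrays, an alternative chosen after seeing the data, 33 of the 35 genes were still higher in BRAFV600E. The median difference was 0.36. There 0 of the 35 passed limma's adjusted threshold, where 205 of 19041 genes tested were called higher. Of the 35, 11 were higher at an unadjusted p under 0.05 by limma, beside 1765 of all genes tested. With slide as a block 2 of 35 passed (Cdk1 and Kif2c), where 2.43% of all genes were called higher. On slide 1 alone, with 2 BRAFV600E arrays, 0 passed and 20 had an unadjusted p under 0.05 by limma. There 193 of 19041 genes tested were called higher, and 1507 were higher at that unadjusted p. The median difference over the 35 genes was 0.63 with slide as a block and on slide 1. Both give the same estimate for each gene. Slide 2 held BRAFV600E arrays only, so the block estimate also sets BRAFV600E 1 and 2 alone against Cre control. Leaving out a single array gave 4 called genes without Cre control 2 or without BRAFV600E 6, 5 without Cre control 5 or BRAFV600E 3, 6 without Cre control 3, 7 without BRAFV600E 4 and 8 without BRAFV600E 1 or 2. In these runs calls over all genes numbered 1441 to 1965, against 2372 with all 12 arrays. The part of the spike-in response in these differences was not tested.

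**Figure D2:**
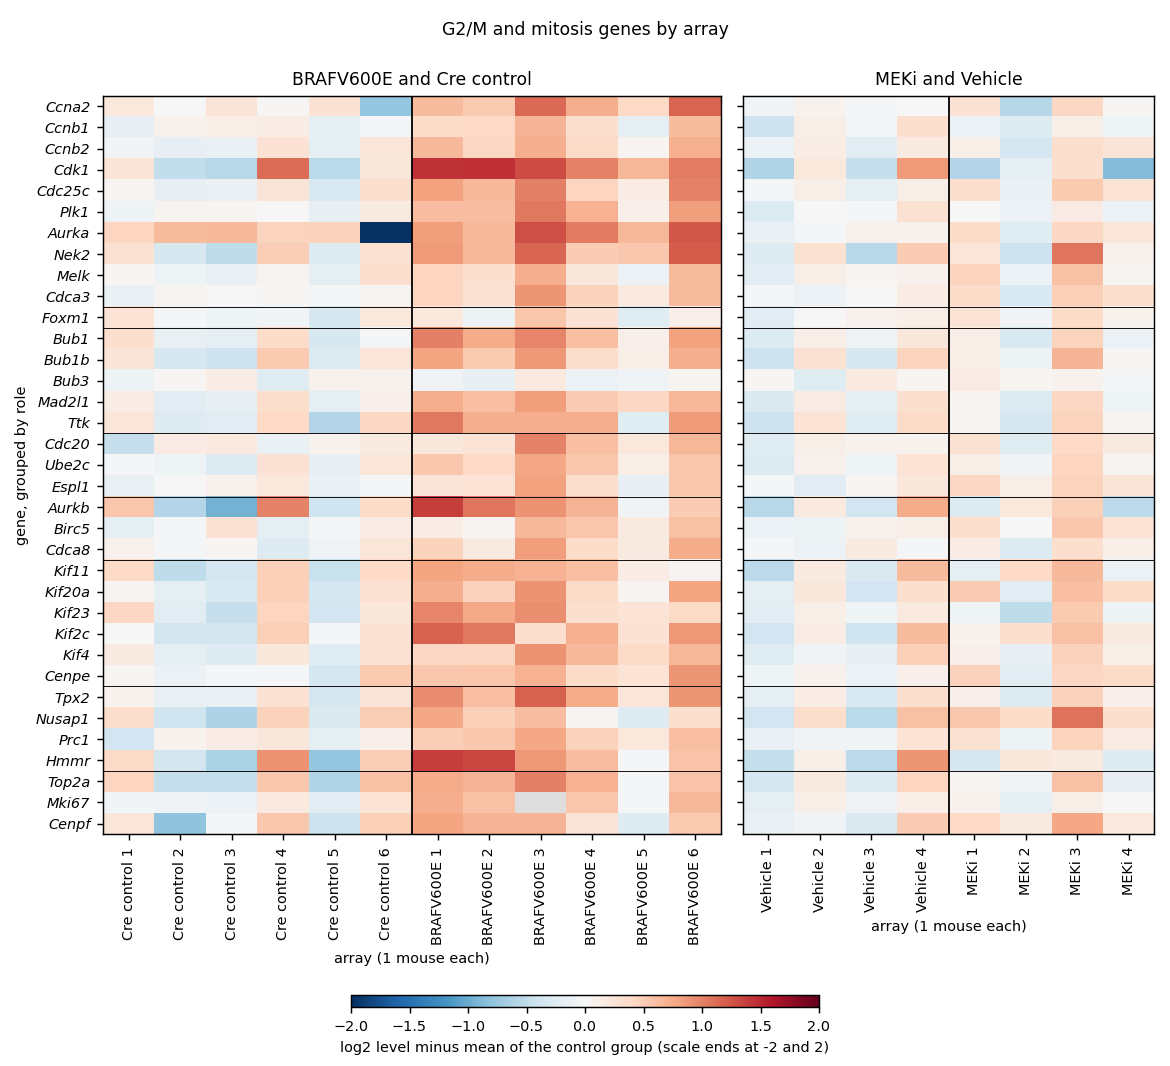
Level of each of the 35 genes on each array, as log2 level minus the mean of the control group of its experiment (Cre control on the left, Vehicle on the right), with red above and blue below that mean, black lines between roles and grey for a spot marked as an outlier. BRAFV600E columns are mostly red, palest in BRAFV600E 5, which was the lowest of its group for 29 of 35 genes, while the MEKi columns hold both colours and are reddest in MEKi 3, the highest of its group for 32.

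The kinases, cyclins and phosphatase that start mitosis held 6 of the 14 risen genes among their 10. On the brightest probes Cdk1, the mitotic kinase itself, showed the largest difference among the risen genes. Its probe lies at chr10:68805423-68807832 on the minus strand (mm9, the build of the array annotation, as for all probe positions here). Cdk1 had a level of -2.05 at the lowest, -1.63 at the median and -0.38 at the highest Cre control array, and of -0.83, -0.33 and -0.04 at the same places among BRAFV600E arrays. The groups overlapped through Cre control 4 alone, at -0.38. The difference was 1.15 ± 0.28 (SE, adjusted p = 0.021 by limma, n = 6 and 6), and 1.45 on slide 1. A further Cdk1 probe at chr10:68797987-68798046, well above background on all 12 arrays, differed by 0.04, and the mean of both probes by 0.60, below the 0.85 of Mad2l1 by the same measure.

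Nek2, a kinase that splits the centrosomes, rose by 0.83 ± 0.21 on the log2 scale (adjusted p = 0.024 by limma). Its levels, at chr1:193656343-193656402 on the plus strand, ran from -2.13 through a median of -1.60 to -1.12 in Cre control and from -1.10 through -0.86 to -0.40 in BRAFV600E, and so did not overlap. Ccna2, or cyclin A2, which serves both replication and entry into mitosis, was measured at chr3:36463978-36464037 on the minus strand. It had levels from 0.94 through 1.82 to 1.996 in Cre control and from 2.11 through 2.39 to 2.87 in BRAFV600E, a difference of 0.76 ± 0.20 (adjusted p = 0.031 by limma). The groups did not overlap, and Cre control 6, at 0.94, stood apart below the other controls, which all lay at 1.71 or more.

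Plk1 is the Polo-like kinase that activates Cdk1 and matures centrosomes. It rose by 0.65 ± 0.15 (adjusted p = 0.017 by limma, probe at chr7:129313220-129313279 on the plus strand). Cre control levels ran from 2.18 through 2.36 to 2.51 and BRAFV600E levels from 2.44 through 3.00 to 3.39, with BRAFV600E 5 the single mutant array inside the control range. The phosphatase Cdc25c, which removes the inhibitory phosphates from Cdk1, rose by 0.67 ± 0.18 (adjusted p = 0.028 by limma). Its levels ran from -1.44 through -1.18 to -0.81 in Cre control and from -0.99 through -0.40 to -0.12 in BRAFV600E, where again BRAFV600E 5 was lowest. Cdca3, a trigger of mitotic entry that promotes destruction of the Wee1 kinase, had the tightest controls. Its levels were 1.96 to 2.14 with a median of 2.11 in Cre control and 2.29 to 2.97 with a median of 2.54 in BRAFV600E (difference 0.48 ± 0.13, adjusted p = 0.028 by limma, chr6:124783233-124783292 on the plus strand), without overlap.

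Ccnb1, Ccnb2, Aurka and Melk did not pass the test. Ccnb1, or cyclin B1, the main mitotic cyclin, had levels of 0.21 to 0.54 (median 0.43) in Cre control and 0.19 to 1.06 (median 0.77) in BRAFV600E (chr13:101548722-101548781, minus strand). The difference was 0.37 ± 0.15 with an adjusted p of 0.13 by limma, and BRAFV600E 5 was the lowest of the 12 arrays. Aurka, the centrosomal Aurora kinase, differed by 0.95 ± 0.49 (adjusted p = 0.21 by limma), with Cre control 6 at -1.30 and every other Cre control array at 1.77 or more. Differences of Ccnb2 and Melk were 0.49 and 0.37.

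Foxm1, the transcription factor that drives late-cycle genes, showed little difference between the groups. Its levels ran from -0.58 through -0.29 to 0.02 in Cre control and from -0.50 through -0.10 to 0.31 in BRAFV600E (chr6:128325837-128325898, plus strand), a difference of 0.14 ± 0.16 with an adjusted p of 0.605 by limma.

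Of the 5 spindle checkpoint genes, Mad2l1 and Bub1 rose. Mad2l1 encodes the MAD2 protein that holds the anaphase-promoting complex in check, and its groups did not overlap. Levels ran from 0.26 through 0.45 to 0.84 in Cre control and from 0.90 through 1.12 to 1.32 in BRAFV600E (chr6:66490836-66490895, plus strand), a difference of 0.63 ± 0.13 (adjusted p = 0.012 by limma). Bub1, a kinetochore kinase of the same checkpoint, rose by 0.70 ± 0.18 (adjusted p = 0.027 by limma) from a Cre control range of -1.85 to -1.16, median -1.62, to a BRAFV600E range of -1.42 to -0.52, median -0.75 (chr2:127626988-127627047, minus strand). The checkpoint kinase Ttk and the BubR1 gene Bub1b differed by 0.64 and 0.57 with adjusted p-values of 0.094 and 0.073 by limma.

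Among the genes of anaphase and mitotic exit, Ube2c rose and Cdc20 and Espl1 were not called. Ube2c is the ubiquitin-conjugating enzyme that works with the anaphase-promoting complex. Its levels ran from 1.37 through 1.56 to 1.92 in Cre control and from 1.76 through 2.16 to 2.40 in BRAFV600E (difference 0.49 ± 0.14, adjusted p = 0.041 by limma, chr2:164598016-164598075, plus strand), and the groups overlapped. Cdc20, the activator of that complex, had groups that did not overlap and an adjusted p of 0.075 by limma at a difference of 0.50, and Espl1, or separase, differed by 0.34. The chromosomal passenger complex gave no call among 3 genes, with differences of 0.75 for Aurkb, 0.46 for Cdca8 and 0.36 for Birc5 (survivin).

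Of the 6 kinesins 3 rose, Kif2c, Kif4 and Cenpe. Kif2c, which depolymerises microtubule ends at kinetochores, ran from -3.90 through -3.56 to -3.07 in Cre control and from -3.26 through -2.75 to -2.36 in BRAFV600E (difference 0.74 ± 0.20, adjusted p = 0.033 by limma, chr4:116832904-116832963, minus strand). A further Kif2c probe, also well above background on all 12 arrays, went the other way, at -0.49, and the mean over both gave 0.12. With normexp background correction the brightest probe gave 0.14, and neither value was called. Kif4, a chromosome-arm motor, did not overlap between groups, with levels from -2.13 through -1.89 to -1.59 in Cre control and from -1.49 through -1.34 to -0.99 in BRAFV600E (difference 0.57 ± 0.15, adjusted p = 0.027 by limma, chrX:97922085-97922145, plus strand). Cenpe, the kinetochore motor that brings chromosomes to the spindle equator, rose by 0.55 ± 0.16 (adjusted p = 0.041 by limma), from a range of 0.39 to 1.26 with median 0.72 to a range of 1.01 to 1.62 with median 1.29 (chr3:134936387-134936446, plus strand). The remaining motors differed by 0.61 for Kif23, 0.55 for Kif20a and 0.51 for Kif11.

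Both Tpx2 and Prc1 rose among the 4 spindle proteins. Tpx2, the spindle assembly factor that activates Aurora A, rose by 0.76 ± 0.17 (adjusted p = 0.015 by limma), with levels from -0.99 through -0.70 to -0.37 in Cre control and from -0.42 through 0.15 to 0.51 in BRAFV600E (chr2:152719476-152719535, plus strand). BRAFV600E 5 was the single mutant array below the highest control. Prc1, which bundles microtubules of the central spindle for cytokinesis, rose by 0.51 ± 0.14 (adjusted p = 0.033 by limma) from 0.55 to 1.16, median 1.02, to 1.13 to 1.69, median 1.45 (chr7:87461048-87461107, plus strand). Hmmr and Nusap1 differed by 0.79 ± 0.33 and 0.33 ± 0.24 and were not called.

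The chromosome proteins Mki67, Top2a and Cenpf, among them the usual markers of proliferation, were higher in BRAFV600E without passing the test. Mki67, the gene of the Ki-67 antigen, ran from 2.53 through 2.68 to 3.02 in Cre control and from 2.71 through 3.33 to 3.47 on the 5 BRAFV600E arrays that measured it, since its spot on BRAFV600E 3 was marked as an outlier (difference 0.49 ± 0.16, adjusted p = 0.068 by limma, chr7:142881591-142881650, minus strand). Top2a, topoisomerase II alpha, fell into 2 sets within Cre control, with arrays 2, 3 and 5 at 0.56 to 0.69 and the others at 1.59 to 1.76, while BRAFV600E ran from 1.14 through 1.85 to 2.18. The difference of 0.61 ± 0.26 had an adjusted p of 0.13 by limma (chr11:98854651-98854710, minus strand). The 3 low Top2a arrays were those of low spike-in slope. Cenpf differed by 0.44 ± 0.26.

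**Figure D3:**
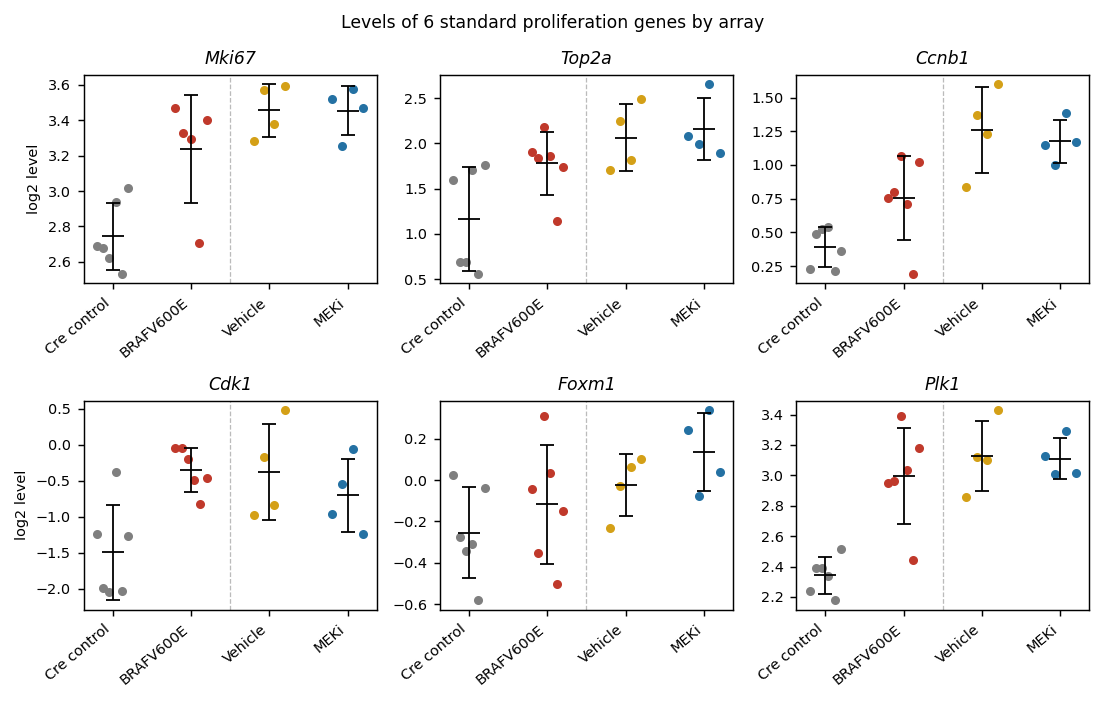
Log2 levels of Mki67, Top2a, Ccnb1, Cdk1, Foxm1 and Plk1 on every array (points), with the group mean and 1 SD as black bars and a dashed line between the experiments, which were on different slides. BRAFV600E lies above most Cre control points for Mki67, Cdk1 and Plk1 and among them for Foxm1, and MEKi overlaps Vehicle in all 6 panels.

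Under MEKi none of the 35 genes was called lower or higher than in Vehicle. By limma over 19231 genes, 0.884% of all genes were called lower and 1.09% higher, against 0 of 35 in each direction, and also at an unadjusted p under 0.05 the count was 0 of 35, where 16.4% of all genes passed in either direction. That unadjusted count was 7 higher without MEKi 2 and 4 higher without Vehicle 4. It was 8 higher with array weights, 5 with Y-linked signal as a covariate and 1 with the mean of the probes of a gene. The remaining alternatives gave 0 higher, and every alternative gave 0 lower. With the Y-linked covariate 1248 of 19231 genes tested were higher at an unadjusted p under 0.05 by limma. Shares over all genes for the other alternatives are not given here. The median log2 difference was 0.14, beside 0.04 over all genes, and the mean was higher in MEKi for 28 of the 35. MEKi and Vehicle arrays overlapped for every one of the 35 genes, while 12.2% of genes tested did not overlap. The smallest adjusted p was 0.33 by limma, for Espl1, whose difference of 0.31 was upward. Without Vehicle 2, the array with pancreatic transcripts, the median was 0.16, and it was 0.02 without MEKi 3, 0.05 without Vehicle 1, 0.09 without Vehicle 3, 0.23 without MEKi 2 and 0.23 without Vehicle 4, with 0 called and 21 to 34 of the differences upward.

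For each gene that had risen in BRAFV600E the MEKi and Vehicle arrays overlapped. Cdk1 showed the most negative difference of the 35, -0.33 ± 0.37 (95% interval -1.18 to 0.53). Its levels were -0.96, -0.55, -0.06 and -1.24 in MEKi 1 to 4 and -0.97, -0.17, -0.84 and 0.48 in Vehicle 1 to 4. Vehicle 4 was the highest of the 8 and MEKi 4 the lowest.

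Plk1 had 3.13, 3.01, 3.29 and 3.01 in MEKi and 2.86, 3.12, 3.10 and 3.43 in Vehicle, a difference of -0.02 ± 0.15. Ccna2 had 2.89, 2.04, 3.02 and 2.63 in MEKi and 2.54, 2.67, 2.58 and 2.62 in Vehicle, a difference of 0.04 ± 0.21. The Vehicle values of Ccna2 lay close together and MEKi values fell on both sides of them.

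Nek2 was at -0.53, -1.20, 0.29 and -0.69 in MEKi and -1.03, -0.47, -1.32 and -0.27 in Vehicle (difference 0.24 ± 0.35). Cdc25c was at 0.13, -0.35, 0.31 and 0.06 in MEKi and -0.25, -0.10, -0.41 and -0.09 in Vehicle (difference 0.25 ± 0.17). MEKi 2 alone kept the Cdc25c groups from separating with MEKi higher. Cdca3 was at 3.24, 2.55, 3.34 and 3.20 in MEKi and 2.81, 2.74, 2.86 and 3.01 in Vehicle (difference 0.23 ± 0.19), with the same array low.

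For the checkpoint genes, Mad2l1 gave 1.03, 0.72, 1.41 and 0.91 in MEKi and 0.70, 1.15, 0.80 and 1.31 in Vehicle, a difference of 0.03 ± 0.20. Bub1 gave -0.85, -1.29, -0.54 and -1.10 in MEKi and -1.27, -0.86, -1.06 and -0.76 in Vehicle, a difference of 0.04 ± 0.19. For both genes the 2 groups spanned nearly the same range. Ube2c gave 2.69, 2.52, 2.99 and 2.62 in MEKi and 2.29, 2.66, 2.49 and 2.84 in Vehicle (0.14 ± 0.16).

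Among the motors, Kif2c was at -2.59, -2.33, -2.07 and -2.47 in MEKi and -3.04, -2.52, -3.05 and -2.03 in Vehicle (0.29 ± 0.25). Kif4 was at -1.10, -1.37, -0.75 and -1.09 in MEKi and -1.44, -1.27, -1.37 and -0.73 in Vehicle (0.13 ± 0.20), and Cenpe at 2.02, 1.33, 1.98 and 1.95 in MEKi and 1.48, 1.65, 1.45 and 1.67 in Vehicle (0.26 ± 0.18). For Cenpe 3 of 4 MEKi arrays lay above all Vehicle arrays and MEKi 2 below them.

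Levels of the risen spindle proteins overlapped as well. Tpx2 was at 0.13, -0.24, 0.47 and 0.12 in MEKi and -0.16, 0.16, -0.28 and 0.35 in Vehicle (0.10 ± 0.20), and Prc1 at 2.11, 1.70, 2.25 and 1.96 in MEKi and 1.64, 1.73, 1.74 and 2.07 in Vehicle (0.21 ± 0.16). Nusap1 had the largest upward difference of the 35, 0.58 ± 0.29 (95% interval -0.10 to 1.26).

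The markers of proliferation showed the same overlap. Mki67 had 3.52, 3.25, 3.57 and 3.47 in MEKi and 3.28, 3.57, 3.38 and 3.59 in Vehicle, with a 95% interval of the difference from -0.30 to 0.30. Top2a had 2.09, 1.996, 2.66 and 1.89 in MEKi and 1.71, 2.25, 1.81 and 2.49 in Vehicle (0.09 ± 0.24), and Ccnb1 1.15, 1.00, 1.38 and 1.17 in MEKi and 0.84, 1.37, 1.23 and 1.60 in Vehicle (-0.08 ± 0.18). Foxm1 had 0.24, -0.08, 0.34 and 0.04 in MEKi and -0.23, -0.03, 0.06 and 0.10 in Vehicle (0.16 ± 0.14). A p that misses the threshold does not show equality, and the intervals of these 4 genes reach down to between -0.50 and -0.16 and up to between 0.30 and 0.63.

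Within each group the same arrays were high or low for most of the genes. MEKi 3 was the highest MEKi array for 32 of the 35 genes and MEKi 2 the lowest for 27, and Vehicle 4 was the highest Vehicle array for 30 and Vehicle 1 the lowest for 21. The 2 Vehicle arrays with low Y-linked signal averaged 1.05 over the 35 genes and the 2 with high signal 0.65, while all 4 MEKi arrays, at a mean of 0.99, had high signal. With Y-linked signal as a covariate the median difference was 0.31, 34 of the 35 differences were upward and 0 were called. No MEKi array had low signal, so that estimate sets the 4 MEKi arrays against Vehicle 1 and 3 alone.

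**Figure D4:**
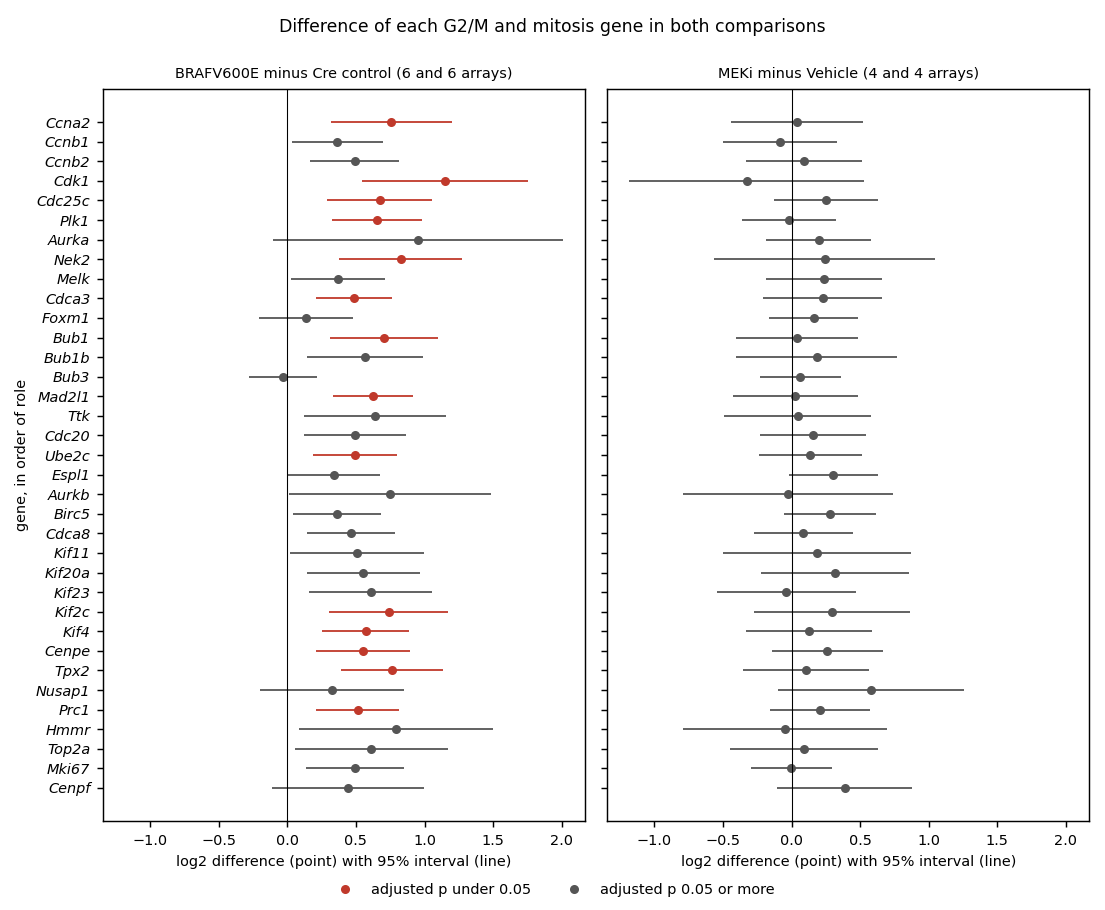
Log2 difference of each of the 35 genes (points) with limma's 95% interval (lines) for BRAFV600E minus Cre control on the left and MEKi minus Vehicle on the right, red where the adjusted p is under 0.05. On the left 34 points lie above 0 and 14 are red, and on the right every interval includes 0.

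Whether inhibition undid the rise was asked in 1 fit of all 20 arrays, as the sum of the 2 differences, which is 0 where MEKi takes a gene back by as much as BRAFV600E raised it. The sum was above 0 for all 35 genes with a median of 0.71, beside 0.02 over all genes. None of the 35 passed limma's adjusted threshold, and 0.00538% of the 18578 genes tested, a single gene, did in either direction. The unadjusted 95% interval of the sum lay above 0 for 24 of the 35 genes, where 4.3% of all genes had such an interval. The sum contains the BRAFV600E difference, so for genes picked by that difference it is no separate evidence. It was 1.07 for Nek2 (0.24 to 1.89), 0.92 for Cdc25c (0.39 to 1.46), and 0.82 for Cdk1, whose interval from -0.18 to 1.82 included 0. The 2 experiments lay on different slides with different tamoxifen courses, and the sum assumes that the inhibited mice carried the rise seen in the first experiment.

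Other genes of the same phase were examined beside the 35. Of 67 further G2/M and mitosis genes, which share none with the 35, 16 rose in BRAFV600E and 1 fell, with a median difference of 0.50, and under MEKi 0 were called with a median of 0.11. Over all genes tested 6.19% were called higher in BRAFV600E and 6.27% lower. The higher calls of the 67 in BRAFV600E were lost with slide as a block (0) and on slide 1 alone (0), at a median of 0.58 in both. Without the low-slope Cre control arrays 1 was made, at a median of 0.30. In these 3 runs 463, 193 and 205 of 19041 genes tested were called higher. Kif18a, a motor that dampens chromosome oscillation, was higher by 1.38 ± 0.41 but was well above background on 3 of 6 Cre control arrays against 6 of 6 in BRAFV600E, so that its control level was only partly measured. The cytokinesis scaffold Anln rose by 1.27 ± 0.36, Pimreg by 1.18 ± 0.20 and the outer kinetochore gene Ska3 by 0.95 ± 0.25. Ndc80, the kinetochore's microtubule anchor, was the gene that fell, by 1.23 on the log2 scale (adjusted p = 0.023 by limma). These lists were chosen with earlier results of the same arrays known.

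Most genes of DNA replication had a lower mean under MEKi. Of 33, only Rrm2, the small subunit of ribonucleotide reductase, rose in BRAFV600E (0.60 ± 0.11, adjusted p = 0.0049 by limma), where 6.19% of all genes tested were called higher. The median difference of the list was 0.31. Under MEKi Mcm3, a subunit of the replicative helicase, fell by 0.73 on the log2 scale (adjusted p = 0.041 by limma), where 0.884% of all genes were called lower. Of the 33 differences 28 were downward, and the median was -0.24, beside 0.04 over all genes. At an unadjusted p under 0.05 by limma 10 of the 33 were lower, beside 1397 of 19231 genes tested. With Y-linked signal as a covariate the MEKi median was -0.13 and 10 of the 33 differences were upward. At that unadjusted p 6 of the 33 were then lower, beside 1159 of all genes tested. The BRAFV600E median of the list was 0.12 with slide as a block and 0.17 without the low-slope Cre control arrays. The Mcm3 call was lost with Y-linked signal as a covariate, and the Rrm2 call on slide 1 alone and without the low-slope Cre control arrays. No test of the difference between the 2 lists was made.

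Regulators of late-cycle transcription gave 1 call among 25 in BRAFV600E, where 6.19% of all genes tested were called higher, and 0 under MEKi. The call was Lin54, the DREAM and MuvB subunit that binds the CHR, at 0.58 ± 0.14 (adjusted p = 0.023 by limma). The Lin54 call was lost with slide as a block, on slide 1 alone and without the low-slope Cre control arrays. These regulators had a median difference of -0.15 under MEKi, with 8 of the 25 upward. It was -0.08 with Y-linked signal as a covariate. At an unadjusted p under 0.05 by limma 4 of the 25 were lower under MEKi and 0 higher, beside 1397 of 19231 genes lower. Among 8 G1 cyclins and kinases that could be tested, Ccnd2 and Cdk6 fell in BRAFV600E, by 0.76 and 0.75 on the log2 scale. There 6.27% of all genes tested were called lower. Under MEKi 0 of the 8 were called. Neither the Ccnd2 nor the Cdk6 call was made on slide 1 alone or without the low-slope Cre control arrays.

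MAPK output genes, which read out ERK activity, moved both ways. Of 22, 13 rose and 2 fell in BRAFV600E, and 8 fell and 0 rose under MEKi, with median differences of 0.72 and -0.94. Over all genes tested 6.19% were called higher and 6.27% lower in BRAFV600E, and 0.884% lower and 1.09% higher under MEKi. In BRAFV600E the counts among the 22 were 9 higher and 0 lower with slide as a block and 4 and 0 on slide 1 alone. They were 4 and 1 without the low-slope Cre control arrays. Under MEKi 5 were lower with Y-linked signal as a covariate, where 34 of 19231 genes tested were called lower. The ETS factor Etv4 rose by 2.50 ± 0.27 (adjusted p = 0.00017 by limma) and fell by 2.95 under MEKi (adjusted p = 0.0033 by limma). The feedback inhibitor Spry4 rose by 2.19 and fell by 2.34, and the phosphatase Dusp4 rose by 1.65 and fell by 1.70, all on the log2 scale. In all, 7 genes were called in both comparisons, Etv5 and Phlda1 among them, and Il1rn was called under MEKi only.

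**Figure D5:**
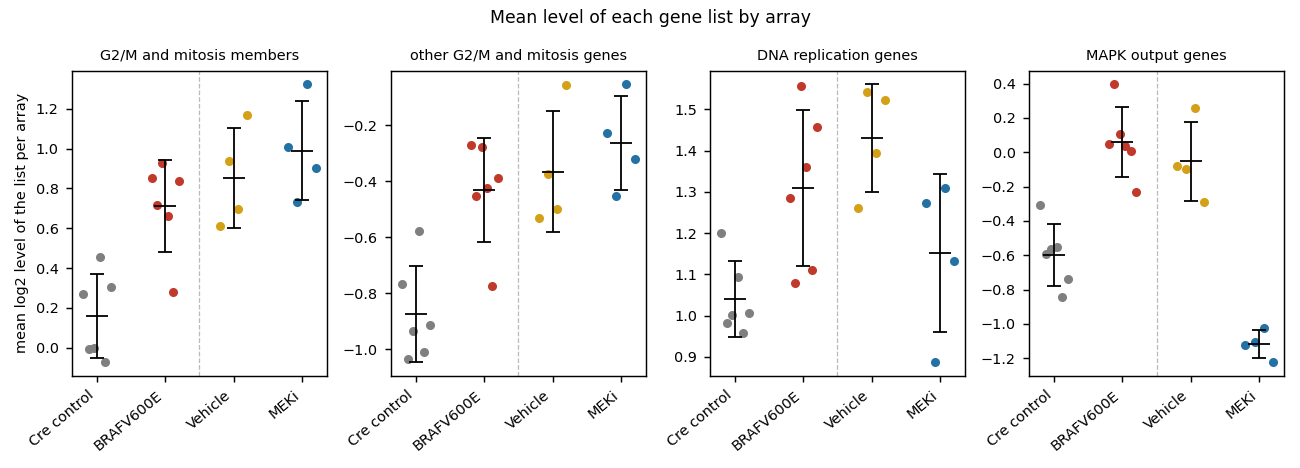
Mean log2 level over each gene list on every array (points), with group mean and 1 SD as black bars and a dashed line between the experiments; the vertical scale differs between panels. Means of the 35 genes were 0.16 ± 0.21 in Cre control, 0.71 ± 0.23 in BRAFV600E, 0.85 ± 0.25 in Vehicle and 0.99 ± 0.25 in MEKi, and the MAPK output genes went from -0.60 ± 0.18 to 0.06 ± 0.20 and from -0.05 ± 0.23 to -1.12 ± 0.08 in the same order.

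Markers of cell types that could hold dividing cells or change the makeup of the tissue moved too. Among crypt base stem cell markers 3 of 7 fell in BRAFV600E (Ascl2, Lgr5 and Axin2) and 1 of 7, Ascl2, rose under MEKi. In BRAFV600E 1 of the 7 was higher at an unadjusted p under 0.05 by limma and was not called. Beside these and the marker counts below, 6.19% of all genes tested were called higher and 6.27% lower in BRAFV600E. Under MEKi the shares were 1.09% and 0.884%. The summed level of the crypt base stem cell markers was 28.0 to 31.0 in Cre control, 23.5 to 31.3 in BRAFV600E, 23.1 to 29.8 in Vehicle and 25.1 to 33.0 in MEKi. Of 5 Paneth cell markers 4 fell in BRAFV600E, with summed levels of 833 to 1499 in Cre control and 235 to 785 in BRAFV600E, and 0 were called under MEKi.

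No T, B or germinal centre lymphocyte marker was called higher in BRAFV600E, and 1 of 8 B lymphocyte markers was called lower. Of 6 plasma cell markers 1 was called higher in BRAFV600E and 1 lower under MEKi, with median differences of -0.41 and -0.38. Of 8 enterocyte markers 1 was called higher in BRAFV600E and 0 were called under MEKi, with median differences of -0.42 and 0.07. T lymphocyte markers fell in 3 of 8 cases in BRAFV600E, and germinal centre B lymphocyte markers, which mark a dividing immune population, fell in 1 of 5 that could be tested (Rgs13) with 0 called higher. Their summed level over 7 markers was 4.43 to 5.44 in Cre control, 3.28 to 4.90 in BRAFV600E, 3.17 to 4.23 in Vehicle and 4.12 to 5.50 in MEKi, and Gcsam stayed near background throughout the Vehicle arrays. Smooth muscle markers rose in 2 of 7 cases in BRAFV600E (Des and Actg2), and their summed level was 71.3 to 108 in Cre control and 70.3 to 160 in BRAFV600E. Under MEKi 0 markers of T lymphocytes, germinal centre B lymphocytes and smooth muscle were called. At an unadjusted p under 0.05 by limma 5 of 8 T lymphocyte markers were higher, beside 1757 of 19231 genes tested. Their median difference was 0.79, though their summed level had a lower median in MEKi than in Vehicle. Of 7 smooth muscle markers 6 had a higher mean in MEKi, with a median difference of 0.67. Without the low-slope Cre control arrays the markers called in BRAFV600E were 2 for crypt base stem cells. They were 0 for Paneth cells, T and B lymphocytes, germinal centre B lymphocytes, plasma cells, enterocytes and smooth muscle. The part of these cell types in the differences of the G2/M and mitosis genes was not tested.

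Where a gene had several measurable probes they mostly pointed the same way. In 5 genes, Foxm1, Kif23, Kif2c, Prc1 and Ttk, probes disagreed in sign in BRAFV600E, counting those that 6 or more of the 12 arrays measured above background. Prc1 gave 0.51, 0.55, 0.78 and 0.89 on 4 probes and -0.31 on the remaining one, at chr7:87449197-87449256. Kif23 gave 0.61, 0.34 and 0.24 on 3 probes and -0.32 on the other, and Ttk gave 0.64, 1.94 and 1.45 against -0.14. Foxm1 differed by 0.14 on its brightest probe and by -0.49 on one that was above background on 6 arrays. The probes of a gene lie at different places in it, and whether they read different transcripts was not tested.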

How the data were processed

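RNA of 20 mouse intestines was hybridised to 1-colour Agilent SurePrint G3 Mouse arrays, 1 mouse each. Spot intensities were deposited as processed signals, which the authors obtained with Agilent Feature Extraction (version 10.5.1.1, per the file headers), background-subtracted and not scaled between arrays. Here log2 of the processed signal minus that of the array's 75th percentile was used, without control spots and spots marked as outliers, and the brightest probe stood for a gene. Genes were tested when 6 or more of 12 arrays (4 or more of 8 in the second experiment) had that probe well above background. Groups were compared with limma 3.58.1 (lmFit and eBayes, two-sided, R 4.3.3, data.table in version 1.17.8), each experiment on its own arrays, with Benjamini-Hochberg adjustment over all genes tested and calls at an adjusted p under 0.05. The sum of the 2 differences came from 1 fit of all 20 arrays.

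Groups came from the source names in the labels. A treatment text shared by all 20 labels matched none of the groups and was not used. The members and lists were chosen with earlier results of these data known. All members were accounted for, per-array values were given for called members and for Mki67, Top2a, Ccnb1, Cdk1, Foxm1 and Plk1, and in other lists at most the 5 called genes with the largest change in a comparison were named. The scripts were tested on simulated data. The deposited value table, equal to the processed signals, was not used. Alternatives covered slide, filter, background correction, scaling, probe choice, array weights, Y-linked signal and leaving out each array. A result on a single marker gene is not reported here. The number of arrays limits the precision.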

Additional observations from a re-analysis of the deposited data

Results flagged for a closer look

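Within-group outliers were sought in 144 sets of arrays, the 4 groups for each of the 35 genes and for their mean level, by the gap of the highest or lowest array to its nearest neighbour as a share of the group's range, and 6 were found, where chance alone gives about 5%. In Cre control 6, Ccna2 was at 0.94 with the next array at 1.71 (share 0.730), and Aurka was at -1.30 with the next at 1.77 (share 0.936). In BRAFV600E 5, Ttk was at -2.95 with the next at -1.98 (share 0.746), and Mki67 was at 2.71 with the next at 3.29 (share 0.774, of 5 values). Cdc20 in Vehicle 1 was at 2.80 with the next at 3.12 (share 0.870). Cenpe in MEKi 2 was at 1.33 with the next at 1.95 (share 0.894).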

How the results depend on the processing

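Of 14 genes called higher in BRAFV600E, slide as a block left 2, and slide 1 alone and the Cre control arrays with a spike-in slope over 0.9 (chosen after seeing the data) each left 0. Calls over all genes fell too, from 2372 to 1533, 734 and 426 in the same order. Without scaling between arrays 35 were called and the mean level difference over the 35 genes was 1.36 rather than 0.55, where all genes shifted by a median of 0.79 and 98.1% of calls over all genes were higher, against 49.7% with scaling. Leaving out 1 array gave 4 to 20 calls, with 4 to 8 without Cre control 2, 3 or 5 or without BRAFV600E 1, 2, 3, 4 or 6. The cause was not tested. The other 8 alternatives gave 10 to 19. Over the 14 genes and their alternatives 216 values stayed called, 120 lost the call and none changed direction. Of 24 alternatives a gene, the call was kept in 22 for Cdk1 and in 21 for Plk1, Mad2l1 and Tpx2. It was kept in 9 for Ube2c and Cenpe, and in 11 to 17 for the rest. Under MEKi and for the sum of the differences every alternative run called 0 of 35. No paired analysis was possible because replicate numbers follow the order of accessions and tie no animals together. With 6 or 4 arrays a group, intervals under MEKi reached from -1.18 to 1.26.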
